A study of Mus musculus with 19 samples.

Results

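The genes described are 50 cell cycle genes of the mouse, listed by name and read in type 1 conventional dendritic cells (DC1). They divide into 14 genes that control passage from G1 into S phase, 15 genes of DNA replication and 21 genes of G2 and mitosis. Each gene was read by the brightest probe set annotated to that gene alone, which left 48 of the 50 on each array type, among 19938 genes on the lymph node arrays and 22180 on the spleen arrays. Ccnb1 had no probe set of its own on either type. Cdkn1a lacked one on the lymph node arrays and Ccne2 on the spleen arrays.

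The series held 19 Affymetrix arrays of sorted DC1 from C57Bl/6j mice, in 7 groups. In the skin-draining lymph nodes (SDLN, here inguinal, cervical and brachial nodes) all sorted cells were labelled Irf8VENUS+, that is, positive for a fluorescent reporter of Irf8. The 4 SDLN groups were migratory DC1 of Batf3-/- mice (n = 3), migratory DC1 of WT mice (n = 2), resident DC1 of Batf3-/- mice (n = 3) and resident DC1 of WT mice (n = 3). Migratory cells come in from the skin and were gated on high MHC class II with intermediate CD11c, and resident cells on the reverse. In spleen the groups were Batf3-/- Irf8VENUS+ (n = 3), WT Irf8VENUS+ (n = 3) and WT Irf8VENUS- (n = 2), all from female mice. Replicate 3 of both Irf8VENUS+ spleen groups was gated on CD24 alone, while the other spleen arrays were gated on CD24 and XCR1. Batf3 encodes a transcription factor on which DC1 development depends, so the cells sorted from Batf3-/- mice are those that carry DC1 surface markers without it. The labels state no ages, and they leave unsaid whether each array had its own mouse, so the p-values measure the spread between arrays, which may be partly technical.

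A cell leaves G1 when D-type cyclins with CDK4 or CDK6, and then cyclin E with CDK2, release the E2F transcription factors from retinoblastoma proteins. E2F factors turn on the genes for origin licensing, nucleotide supply and DNA synthesis. A later wave, driven through the MuvB complex, B-MYB and FOXM1, supplies the kinases, motors and checkpoint proteins of mitosis. Differentiated dendritic cells in lymphoid organs still divide at a low rate, whereas dendritic cells that have matured and left the skin are known to be largely out of cycle.

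Values are log2 intensities, and differences are log2 differences with the standard error (SE) of the limma fit. A gene was called at a Benjamini-Hochberg adjusted p under 0.05 over all genes tested on its array type. Genes entered the test if 2 or more arrays were at or above the overall median, a log2 intensity of 4.82 in SDLN and 5.04 in spleen, called the filter level below. On the SDLN arrays 47 of the 48 genes were tested, all but Prc1, and on the spleen arrays 47 of 48, all but E2f2.

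Batf3 itself measured 5.50 to 6.17 on the 6 Batf3-/- SDLN arrays, against 8.15 to 9.23 on the 5 WT arrays, and 5.29 to 7.08 on the 3 Batf3-/- spleen arrays, against 9.42 to 10.41 on the 5 WT arrays. The 11 DC1 markers include Batf3 itself, which lowers their average in Batf3-/- arrays. They averaged 7.18 to 7.45 in Batf3-/- migratory and 7.58 to 7.91 in WT migratory arrays. In resident arrays they averaged 9.12 to 9.20 in Batf3-/- and 9.51 to 9.72 in WT mice. The 7 markers of migratory dendritic cells, Ccr7 among them, averaged 10.22 to 10.90 in Batf3-/- migratory, 9.81 to 10.05 in WT migratory, 7.32 to 8.43 in Batf3-/- resident and 6.62 to 7.19 in WT resident arrays, and 7 of 7 were called higher in migratory than in resident cells of each genotype. The first WT resident array stood apart by Sirpa, the gene for CD172a, which the gate was set to exclude, at 7.82, against 4.93 to 6.15 on the other 10 SDLN arrays.

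The promoter windows of 4 genes are shown because they hold the sequence motifs that genes of S phase and mitosis are known for. The windows are those of RefSeq on GRCm38.p6, and 40 of the 50 genes had one. Capitals mark E2F motifs (TTTGGCGC, TTTCCCGC, TTTGCCGC or TTTCGCGC), the cell cycle homology region motif (CHR, TTTGAA) and the NF-Y motif (CCAAT), each searched on both strands, so that the minus-strand forms appear reversed and complemented. Printed are the 250 bases before the annotated start, 5′ to 3′ on the strand of the gene. Mcm6, a subunit of the replicative helicase, lies on the minus strand at chr1:128359706-128359955. Cdk1, the mitotic kinase, has its bases at chr10:69352913-69353162, Ccnb2, its cyclin B2 partner, at chr9:70421555-70421804, and Top2a, which encodes DNA topoisomerase II alpha, at chr11:99024190-99024439, all on the minus strand. The 4 were chosen after the motifs had been counted.
Mcm6: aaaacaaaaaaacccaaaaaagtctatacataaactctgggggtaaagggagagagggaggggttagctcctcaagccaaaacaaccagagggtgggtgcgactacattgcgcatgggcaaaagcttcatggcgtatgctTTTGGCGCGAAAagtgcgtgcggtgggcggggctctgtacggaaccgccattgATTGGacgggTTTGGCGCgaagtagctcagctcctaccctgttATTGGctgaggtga
Cdk1: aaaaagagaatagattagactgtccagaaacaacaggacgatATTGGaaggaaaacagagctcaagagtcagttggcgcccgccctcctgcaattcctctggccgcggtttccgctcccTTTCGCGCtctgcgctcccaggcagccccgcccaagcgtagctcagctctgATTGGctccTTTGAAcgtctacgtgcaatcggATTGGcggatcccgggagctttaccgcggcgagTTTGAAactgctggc
Ccnb2: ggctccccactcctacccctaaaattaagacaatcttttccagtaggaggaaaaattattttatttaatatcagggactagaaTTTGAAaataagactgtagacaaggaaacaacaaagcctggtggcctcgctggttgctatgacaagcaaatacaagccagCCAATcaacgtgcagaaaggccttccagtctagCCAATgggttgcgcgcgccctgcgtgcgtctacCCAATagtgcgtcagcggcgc
Top2a: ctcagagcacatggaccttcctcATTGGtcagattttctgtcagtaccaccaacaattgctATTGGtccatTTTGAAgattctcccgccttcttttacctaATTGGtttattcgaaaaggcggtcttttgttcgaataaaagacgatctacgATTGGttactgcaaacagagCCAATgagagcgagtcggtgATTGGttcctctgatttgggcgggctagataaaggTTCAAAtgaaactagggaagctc
The Mcm6 stretch held 3 E2F matches, of which a plus-strand TTTGGCGC and a minus-strand TTTCGCGC overlap, and 2 NF-Y matches. In Cdk1 there was 1 E2F match beside 2 CHR and 3 NF-Y matches. Ccnb2 had 1 CHR and 3 NF-Y matches, and Top2a 2 CHR and 6 NF-Y matches. Over whole windows of 300 bases, an E2F motif was present in 5 of 12 replication genes (41.7%), 2 of 11 G1/S genes (18.2%) and 1 of 17 mitosis genes (5.9%), against 2.6% of the 27025 genes with a window. A CHR motif was present in 12 of 17 mitosis genes (70.6%), 2 of 12 replication genes (16.7%) and 2 of 11 G1/S genes (18.2%), against 20.2% of all genes. NF-Y motifs were in 15 of 17 mitosis genes (88.2%), 9 of 12 replication genes (75.0%) and 6 of 11 G1/S genes (54.5%), against 41.1%. A match describes letters in a window and is not evidence of binding.

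The first question was whether cell cycle genes differ between migratory and resident DC1. They were lower in migratory cells in all 3 phases and in both genotypes. In Batf3-/- mice 42 of the 47 tested genes were called lower and 1 higher, against 22.6% and 14.1% of all 11931 genes tested. In WT mice 44 were called lower and 1 higher, against 33.2% and 16.0%. With the spread of all values on an array (SD over genes) as a covariate, 40 were called lower in Batf3-/- and 13 in WT mice. The shares of all genes called lower at that setting were 17.2% and 4.43%. In WT mice that spread did not overlap between populations (1.96 to 2.03 in migratory, 2.21 to 2.22 in resident arrays). The covariate and the population can therefore hardly be told apart there. The median difference over the 47 genes was -1.46 in Batf3-/- and -1.63 in WT mice, while the median over all tested genes was -0.02 in Batf3-/- and -0.16 in WT mice. Without the filter on dim genes, 43 of 48 were called lower in Batf3-/- mice, with 12.7% of all 19938 genes lower and 8.66% higher, and 45 of 48 in WT mice, with 20.1% lower and 24.4% higher. On 43 of the 47 genes every Batf3-/- migratory array lay below every Batf3-/- resident array, which 26.8% of all genes did, and on 44 every WT migratory array lay below every WT resident array, which 44.2% did. The reverse order was found for 1 gene in each genotype, against 20.0% of all genes in Batf3-/- and 26.1% in WT mice. In bulk arrays, fewer cells in cycle and less of each transcript per cycling cell cannot be told apart.

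By phase, the median difference in Batf3-/- mice was -1.09 for the 13 G1/S genes, -1.46 for the 15 replication genes and -2.18 for the 19 tested mitosis genes. In WT mice it was -1.27 for G1/S, -1.63 for replication and -2.23 for mitosis genes. All 19 mitosis genes were called lower in both genotypes, and so were 14 of 15 replication genes in Batf3-/- and 15 in WT mice, the exception being Gins2 (-0.30 ± 0.16, adjusted p = 0.16). Of the 13 G1/S genes, 9 were called lower in Batf3-/- and 10 in WT mice.

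**Figure D1:**
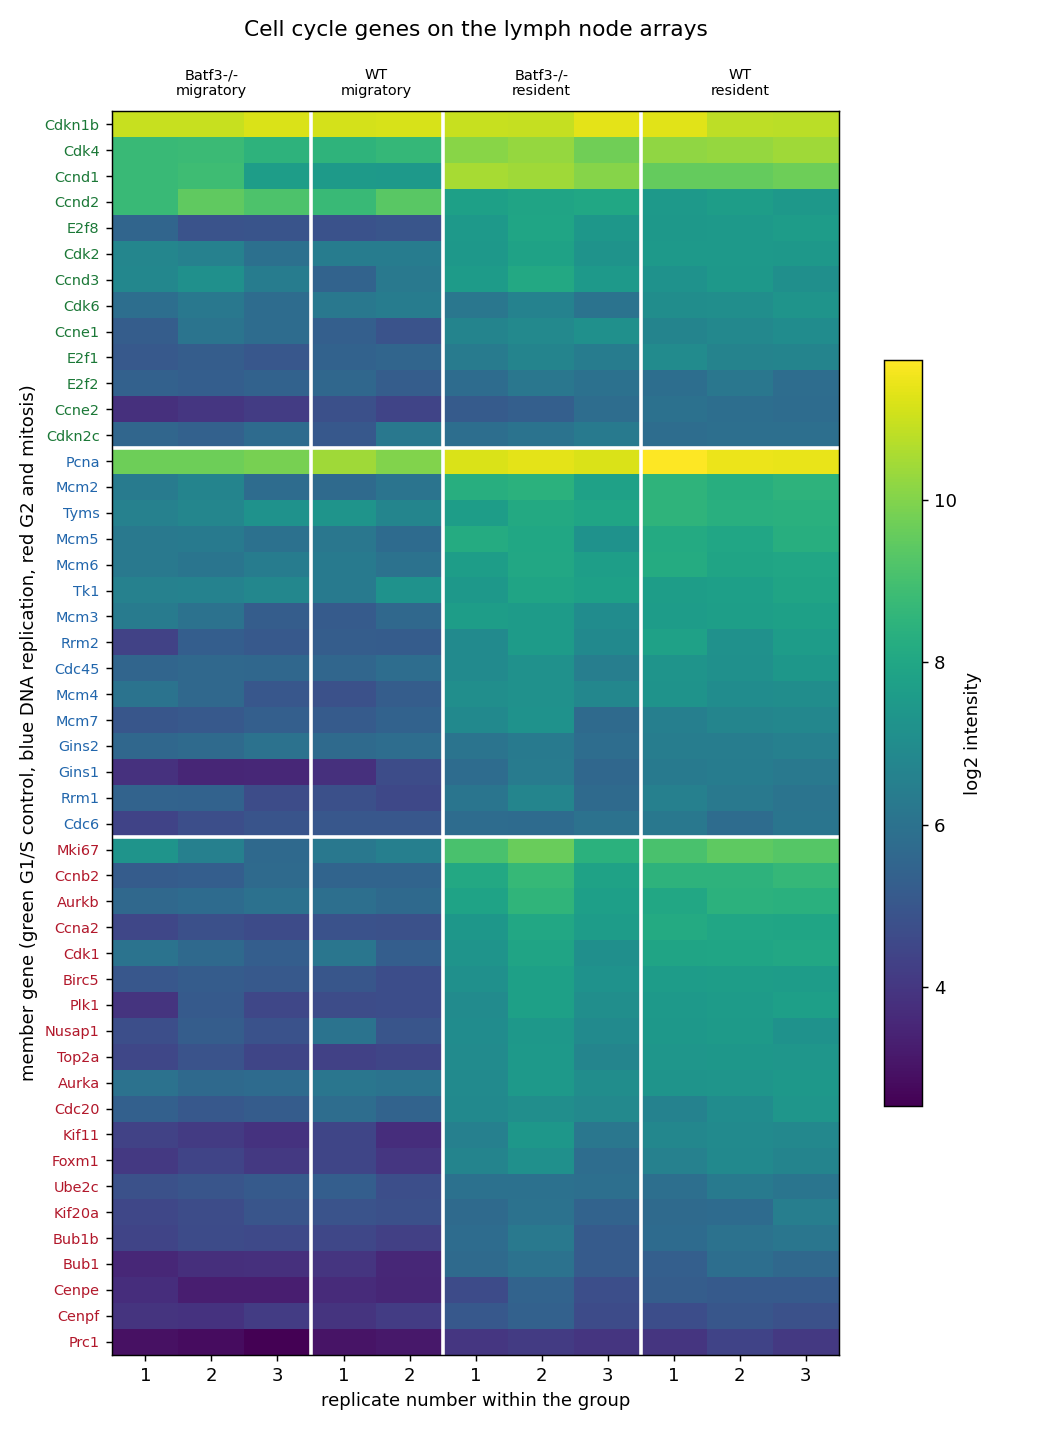
Log2 intensity (colour scale) of the 48 cell cycle genes with a probe set of their own (rows, by phase) on the 11 SDLN arrays (columns, by group and replicate). Most rows are lower in the 5 migratory columns than in the 6 resident columns, with Ccnd2 the reverse and Cdkn1b overlapping.

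Among the D-type cyclins, which open G1, 2 were lower in migratory cells and 1 was higher. Ccnd1 (cyclin D1) measured 8.77, 8.89 and 7.65 in Batf3-/- migratory and 7.54 and 7.51 in WT migratory cells, against 10.51, 10.40 and 10.05 in Batf3-/- resident and 9.54, 9.56 and 9.69 in WT resident cells. Its migratory and resident arrays did not overlap in either genotype, and the difference was -1.89 ± 0.27 in Batf3-/- (adjusted p = 0.00015) and -2.07 ± 0.30 in WT mice (adjusted p = 0.00016). Ccnd3 (cyclin D3) was lower by -0.95 ± 0.25 in Batf3-/- (adjusted p = 0.0086) and -1.38 ± 0.28 in WT mice (adjusted p = 0.0014). With the array spread as a covariate the Ccnd3 difference in WT mice turned to 0.34 (adjusted p = 0.68) and that in Batf3-/- mice was no longer called (-0.38, adjusted p = 0.17), while Ccnd1 in WT mice stood at -0.35 (adjusted p = 0.73). Ccnd2 (cyclin D2) went the other way, with 8.76, 9.47 and 9.15 in Batf3-/- migratory and 8.75 and 9.36 in WT migratory cells, against 7.77, 7.90 and 7.99 in Batf3-/- resident and 7.47, 7.66 and 7.43 in WT resident cells. Every migratory array lay above every resident array for Ccnd2, by 1.24 ± 0.21 in Batf3-/- (adjusted p = 0.00052) and 1.53 ± 0.23 in WT mice (adjusted p = 0.00023), and no other of the 47 genes was called higher in either genotype.

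Of the G1 kinases, Cdk4 and Cdk2 were called lower in both genotypes. Cdk4, the main partner of the D-type cyclins, had 8.77, 8.79 and 8.47 in Batf3-/- migratory and 8.50 and 8.64 in WT migratory cells, against 10.09, 10.27 and 9.73 in Batf3-/- resident and 10.19, 10.26 and 10.43 in WT resident cells. Its difference was -1.35 ± 0.16 in Batf3-/- (adjusted p = 4e-05) and -1.72 ± 0.18 in WT mice (adjusted p = 1.7e-05). Cdk6, the alternative partner, was not called in Batf3-/- mice (-0.32 ± 0.18, adjusted p = 0.19) and was called lower in WT mice (-0.81 ± 0.20, adjusted p = 0.0058). The 2 Cdk6 differences were not shown to differ from each other (0.49 ± 0.27, adjusted p = 0.34). Cdk2, the partner of cyclin E and cyclin A, was lower by -1.09 ± 0.22 in Batf3-/- and -1.10 ± 0.24 in WT mice. With the array spread as a covariate the WT values were 0.23 for Cdk2 (adjusted p = 0.78), a turned sign, -0.03 for Cdk6 (adjusted p = 0.98) and -0.81 for Cdk4 (adjusted p = 0.13).

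Cyclin E and the E2F factors were lower too. Ccne1 measured 5.24, 6.08 and 5.78 in Batf3-/- migratory and 5.31 and 4.88 in WT migratory cells, against 6.68, 6.85 and 7.14 in Batf3-/- resident and 6.69, 6.84 and 6.99 in WT resident cells, a difference of -1.20 ± 0.21 (adjusted p = 0.0008) in Batf3-/- and -1.74 ± 0.24 (adjusted p = 0.00011) in WT mice. Ccne2 was read at 3.81 to 4.18 in Batf3-/- migratory and 4.77 and 4.42 in WT migratory cells, below the filter level, against 5.16, 5.32 and 5.84 in Batf3-/- resident and 5.96, 5.84 and 5.79 in WT resident cells. E2f8, an atypical E2F that represses E2F targets late in S phase, had the largest difference of the G1/S genes in both genotypes, -2.50 ± 0.20 (adjusted p = 1.2e-06) in Batf3-/- and -2.61 ± 0.22 (adjusted p = 3e-06) in WT mice. It stood at 5.53, 4.90 and 4.92 in Batf3-/- migratory and 4.84 and 4.97 in WT migratory cells, against 7.48, 7.95 and 7.41 in Batf3-/- resident and 7.43, 7.49 and 7.62 in WT resident cells. E2f1, an activator of S-phase genes, was lower by -1.35 ± 0.14 in Batf3-/- and -1.29 ± 0.16 in WT mice, and E2f2, another activator, by -0.61 ± 0.15 in Batf3-/- and -0.52 ± 0.17 in WT mice.

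The 2 CDK inhibitor genes of the list that were read in SDLN were not called. Others outside the list, Cdkn2b and Cdkn2a, were called higher in migratory cells and are given below. Cdkn1b, which encodes p27, measured 10.93, 10.96 and 11.19 in Batf3-/- migratory and 11.13 and 11.16 in WT migratory cells, against 10.95, 10.92 and 11.35 in Batf3-/- resident and 11.32, 10.82 and 10.78 in WT resident cells. The arrays of the groups overlapped, and the differences of -0.05 ± 0.16 (adjusted p = 0.84) in Batf3-/- and 0.17 ± 0.18 (adjusted p = 0.44) in WT mice were not called. A second, dimmer Cdkn1b probe set gave -0.35 in Batf3-/- and -0.96 in WT mice, so the 2 probe sets disagree on direction in WT. Cdkn2c, which encodes p18, gave -0.49 ± 0.24 (adjusted p = 0.13) in Batf3-/- and -0.21 ± 0.26 (adjusted p = 0.53) in WT mice.

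**Figure D2:**
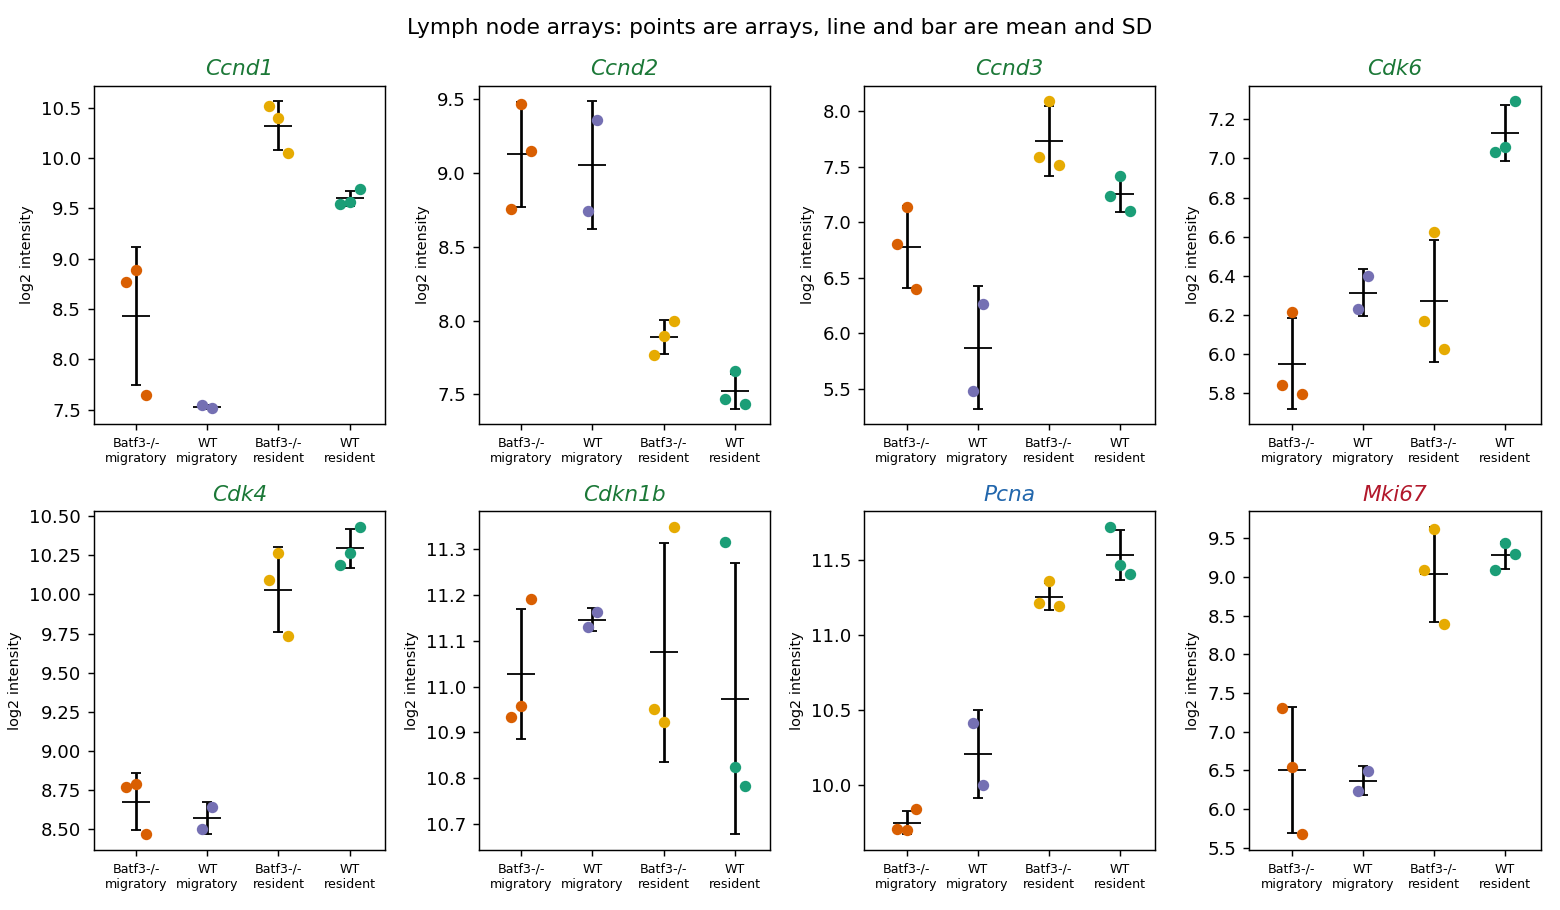
Log2 intensity of 8 genes (panels, green titles for G1/S control, blue for DNA replication, red for mitosis) in the 4 SDLN groups, with points for arrays and a line and bar for mean and SD (n = 3, or 2 for WT migratory; axes do not start at 0). Ccnd1, Ccnd3, Cdk4, Pcna and Mki67 lie lower in migratory cells, Ccnd2 lies higher, and Cdkn1b overlaps.

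Of the replication genes, the 6 subunits of the MCM helicase, which is loaded on origins in G1 and unwinds DNA in S phase, were all called lower. They ranged from -1.90 (Mcm2) to -1.44 (Mcm4) in Batf3-/- and from -2.53 (Mcm2) to -1.36 (Mcm7) in WT mice. Mcm2 measured 6.37, 6.69 and 5.77 in Batf3-/- migratory and 5.72 and 6.07 in WT migratory cells, against 8.31, 8.40 and 7.81 in Batf3-/- resident and 8.50, 8.28 and 8.49 in WT resident cells. For Mcm3 the values were 6.34, 6.01 and 5.25 in Batf3-/- migratory and 5.17 and 5.64 in WT migratory cells, against 7.66, 7.57 and 7.00 in Batf3-/- resident and 7.60, 7.68 and 7.76 in WT resident cells. Mcm5 had 6.25, 6.28 and 5.97 in Batf3-/- migratory and 6.17 and 5.75 in WT migratory cells, against 8.17, 8.01 and 7.22 in Batf3-/- resident and 8.14, 7.96 and 8.30 in WT resident cells. No migratory array reached the lowest resident array of its genotype for these 3 genes. Mcm6, whose promoter is printed above, was lower by -1.54 ± 0.17 in Batf3-/- (adjusted p = 1.7e-05) and -1.85 ± 0.19 in WT mice (adjusted p = 1.2e-05).

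Gins1, a subunit of the GINS complex that completes the active helicase, read 3.85, 3.53 and 3.56 in Batf3-/- migratory and 3.82 and 4.66 in WT migratory cells, against 5.78, 6.37 and 5.61 in Batf3-/- resident and 6.29, 6.40 and 6.24 in WT resident cells. All 5 migratory values lay below the filter level, and the difference was -2.27 ± 0.23 in Batf3-/- (adjusted p = 8e-06) and -2.07 ± 0.25 in WT mice (adjusted p = 4.4e-05). Gins2, of the same complex, had the smallest difference of the replication genes in both genotypes, with -0.70 ± 0.18 in WT mice. Cdc45, the third component of the active helicase, was lower by -1.26 ± 0.18 in Batf3-/- and -1.58 ± 0.20 in WT mice, and the licensing factor Cdc6 by -1.16 ± 0.16 in Batf3-/- and -1.01 ± 0.18 in WT mice.

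Rrm2, the cell cycle regulated subunit of ribonucleotide reductase, measured 4.33, 5.29 and 5.09 in Batf3-/- migratory and 5.24 and 5.20 in WT migratory cells, against 6.93, 7.57 and 6.88 in Batf3-/- resident and 7.81, 7.19 and 7.60 in WT resident cells (-2.23 ± 0.26 in Batf3-/- and -2.32 ± 0.29 in WT mice). The other genes of nucleotide supply were called lower in both genotypes, Rrm1 by -0.99 ± 0.26 in Batf3-/- and -1.63 ± 0.29 in WT mice, Tyms (thymidylate synthase) by -1.06 ± 0.21 in Batf3-/- and -1.41 ± 0.24 in WT mice, and Tk1 (thymidine kinase 1) by -1.04 ± 0.22 in Batf3-/- mice, with -2.19 in a second Tk1 probe set. Pcna, the sliding clamp of DNA polymerases, had 9.71, 9.70 and 9.84 in Batf3-/- migratory and 10.41 and 10.00 in WT migratory cells, against 11.22, 11.36 and 11.20 in Batf3-/- resident and 11.72, 11.47 and 11.41 in WT resident cells. It lay above the filter level in migratory cells while lower by -1.51 ± 0.13 in Batf3-/- (adjusted p = 2.8e-06) and -1.33 ± 0.15 in WT mice (adjusted p = 2.2e-05), and its second probe set gave -1.51 in Batf3-/- and -1.33 in WT mice.

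The mitosis genes held the largest differences. Ccna2 (cyclin A2) measured 4.49, 4.77 and 4.64 in Batf3-/- migratory and 4.86 and 4.80 in WT migratory cells, against 7.39, 8.03 and 7.60 in Batf3-/- resident and 8.16, 7.99 and 7.93 in WT resident cells, a difference of -3.04 ± 0.17 (adjusted p = 1.1e-07) in Batf3-/- and -3.20 ± 0.19 (adjusted p = 3e-07) in WT mice. Its migratory values lay near the filter level of 4.82, where the arrays give no measure of background. Ccnb2 had 5.22, 5.30 and 5.70 in Batf3-/- migratory and 5.51 and 5.49 in WT migratory cells, against 8.07, 8.71 and 7.85 in Batf3-/- resident and 8.48, 8.46 and 8.67 in WT resident cells (-2.80 ± 0.21 in Batf3-/- and -3.04 ± 0.24 in WT mice). Cdk1, which both cyclins activate, had 6.05, 5.66 and 5.28 in Batf3-/- migratory and 6.15 and 5.29 in WT migratory cells, against 7.29, 7.90 and 7.10 in Batf3-/- resident and 7.89, 7.93 and 8.03 in WT resident cells. The migratory arrays of both genotypes lay below all resident arrays, by -1.77 ± 0.27 (adjusted p = 0.00021) in Batf3-/- and -2.23 ± 0.30 (adjusted p = 8.3e-05) in WT mice.

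Mki67, whose product coats mitotic chromosomes and is the usual marker of cycling cells, measured 7.30, 6.55 and 5.67 in Batf3-/- migratory and 6.23 and 6.50 in WT migratory cells, against 9.09, 9.62 and 8.39 in Batf3-/- resident and 9.09, 9.44 and 9.30 in WT resident cells. It was lower by -2.53 ± 0.37 in Batf3-/- (adjusted p = 0.00017) and -2.91 ± 0.41 in WT mice (adjusted p = 0.00013), and the 3 Batf3-/- migratory arrays spread over more than 1 log2 unit. With the array spread as a covariate Mki67 stood at -0.14 ± 0.60 in WT mice (adjusted p = 0.92), and its call in Batf3-/- mice was kept. In WT mice spread and population can hardly be told apart, so the WT value does not show that the difference is due to the spread. Top2a had 4.49, 4.88 and 4.47 in Batf3-/- migratory and 4.31 and 4.46 in WT migratory cells, against 6.98, 7.52 and 6.72 in Batf3-/- resident and 7.35, 7.39 and 7.36 in WT resident cells (-2.46 ± 0.19 in Batf3-/- and -2.98 ± 0.21 in WT mice). A second Top2a probe set with a mean of 3.16 gave 0.29 in Batf3-/- and 1.45 in WT mice, opposite to the brighter one. Plk1, a kinase of mitotic entry and spindle assembly, stood at 3.93, 5.14 and 4.48 in Batf3-/- migratory and 4.67 and 4.71 in WT migratory cells, against 6.98, 7.77 and 7.08 in Batf3-/- resident and 7.50, 7.59 and 7.73 in WT resident cells (-2.76 ± 0.27 in Batf3-/- and -2.92 ± 0.30 in WT mice). Kif11, the motor that separates spindle poles, had 4.35, 4.13 and 3.87 in Batf3-/- migratory and 4.45 and 3.75 in WT migratory cells, against 6.54, 7.42 and 6.20 in Batf3-/- resident and 6.78, 6.93 and 6.82 in WT resident cells.

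Among the other mitotic regulators, Birc5 (survivin) and Aurkb (Aurora B), both of the chromosomal passenger complex, were lower by -2.26 ± 0.17 and -2.26 ± 0.21 in Batf3-/- mice and by -2.78 ± 0.19 and -2.51 ± 0.24 in WT mice. Aurora A, the spindle pole kinase encoded by Aurka, and Bub1b, a checkpoint kinase relative, were lower by -1.32 ± 0.16 and -1.18 ± 0.22 in Batf3-/- mice and by -1.26 ± 0.18 and -1.58 ± 0.25 in WT mice. The kinesin genes Kif20a and Cenpe differed by -1.01 ± 0.21 and -1.49 ± 0.20 in Batf3-/- mice and by -1.15 ± 0.24 and -1.58 ± 0.23 in WT mice. Nusap1, a microtubule-binding spindle protein gene, was lower by -2.18 ± 0.25 in Batf3-/- and -1.91 ± 0.28 in WT mice. Foxm1, the transcription factor that activates many genes of mitosis, was lower by -2.36 ± 0.27 in Batf3-/- and -2.48 ± 0.30 in WT mice. The spindle checkpoint kinase Bub1 was lower by -1.92 ± 0.21 in Batf3-/- and -1.86 ± 0.24 in WT mice, and the anaphase-promoting complex activator Cdc20 by -1.74 ± 0.18 in Batf3-/- and -1.35 ± 0.21 in WT mice. The smallest differences of the phase were those of Ube2c, its ubiquitin-conjugating enzyme, in Batf3-/- mice (-0.96 ± 0.16) and of the kinetochore protein gene Cenpf in WT mice (-0.80 ± 0.20). Prc1, a spindle midzone protein gene left out by the filter, measured 2.54 to 2.93 in Batf3-/- migratory and 3.02 to 3.12 in WT migratory cells, against 3.96 to 4.15 in Batf3-/- resident and 3.96 to 4.37 in WT resident cells.

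**Figure D3:**
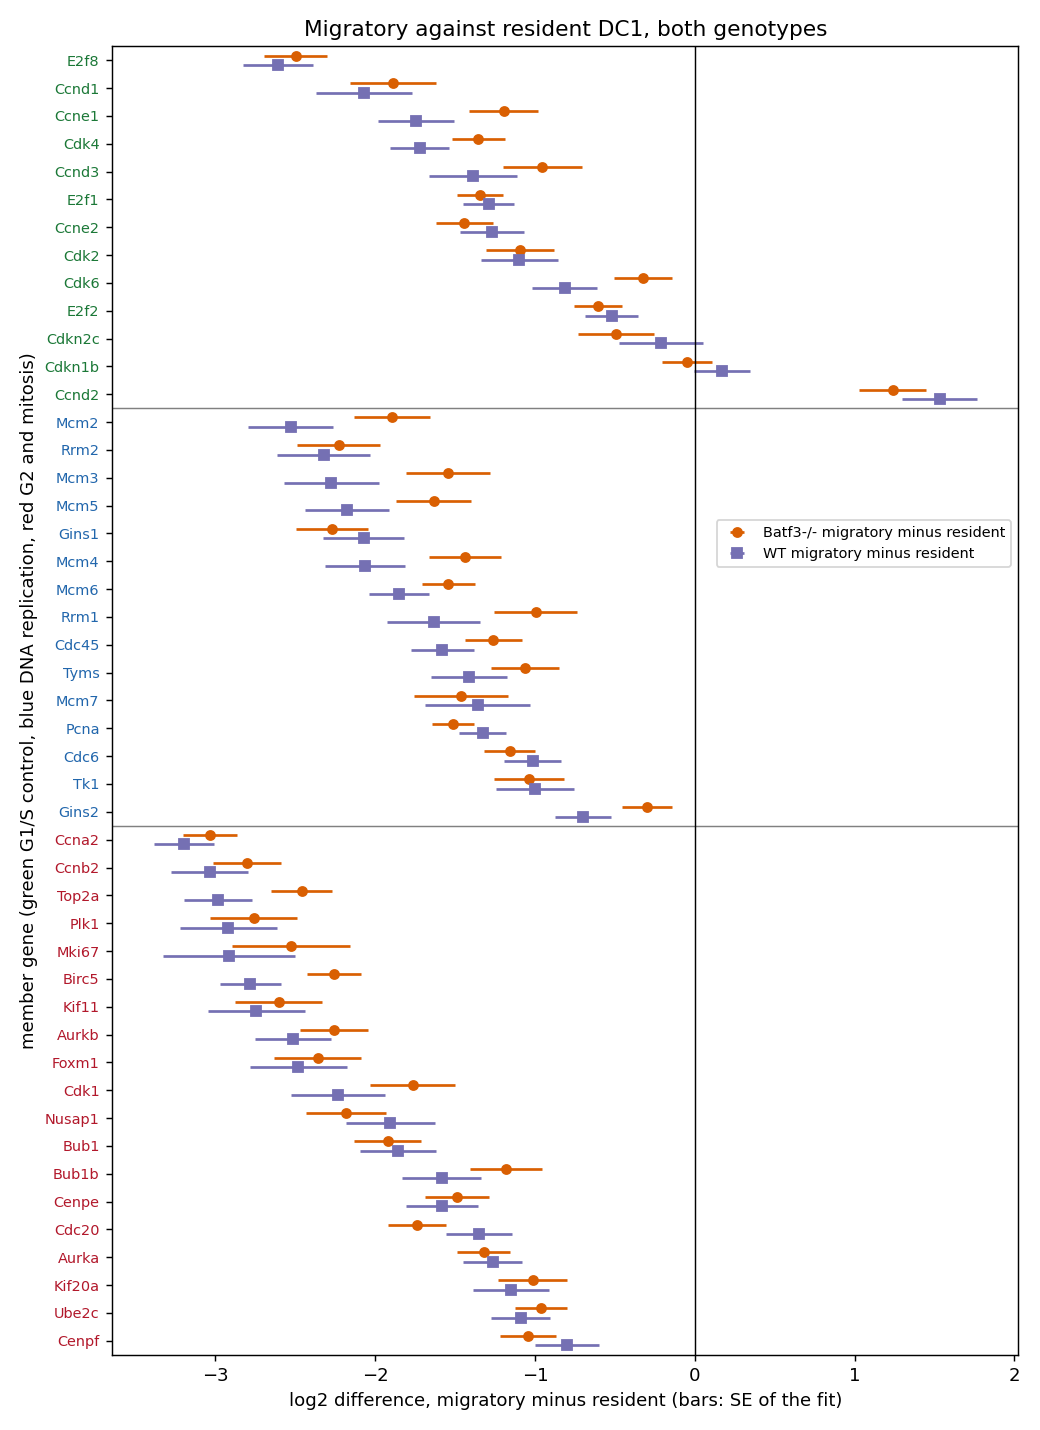
Log2 difference, migratory minus resident, for the 47 tested cell cycle genes (rows, by phase), with circles for Batf3-/- and squares for WT mice and bars for the SE of the fit. Most points lie left of 0 in both genotypes, Ccna2 is farthest to the left, and Ccnd2 is the gene to the right in both.

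In wider lists of cell cycle genes the median difference was -0.25, -0.80 and -1.23 in Batf3-/- mice and -0.54, -0.97 and -1.24 in WT mice, for G1, replication and mitosis. Of 50 other mitosis genes tested, 44 were called lower and 0 higher in each genotype, and 44 in Batf3-/- and 45 in WT mice had an unadjusted p under 0.05, against 45.2% and 55.8% of all genes. Kif23, a motor of cytokinesis, led with 4.74 ± 0.14 in Batf3-/- migratory against 7.75 ± 0.17 in Batf3-/- resident cells (SD, n = 3 each) and 5.38 ± 0.41 in WT migratory (n = 2) against 8.44 ± 0.09 in WT resident cells (n = 3). Of 31 other replication genes, 21 were called lower and 1 higher in Batf3-/- mice, against 22.6% and 14.1% of all genes. In WT mice 22 were called lower and 1 higher, against 33.2% and 16.0%. The higher one in each was Gins3 (1.75 ± 0.20 in Batf3-/- and 1.56 ± 0.23 in WT mice), a partner of Gins1 and Gins2 in one complex, and among the lower ones were the histone chaperone Asf1b (-1.92 ± 0.22 in Batf3-/- and -2.50 ± 0.25 in WT mice) and the polymerase epsilon subunit gene Pole (-1.68 ± 0.21 in Batf3-/- and -2.44 ± 0.23 in WT mice).

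The 22 other genes of G1 and quiescence went both ways. In Batf3-/- mice 9 were called lower and 7 higher, against 22.6% and 14.1% of all genes. In WT mice 11 were called lower and 5 higher, against 33.2% and 16.0%. Higher in migratory cells were the CDK inhibitor genes Cdkn2b, which encodes p15 (2.36 ± 0.16 in Batf3-/-, 1.77 ± 0.18 in WT), and Cdkn2a, which encodes p16 and p19ARF (1.61 ± 0.19 in Batf3-/- and 1.52 ± 0.21 in WT mice), and Ccng2, a cyclin linked to cell cycle arrest (2.12 ± 0.18 in Batf3-/- and 2.20 ± 0.20 in WT mice). Lower were Cdc25a, a phosphatase that activates CDKs (-1.82 ± 0.14 in Batf3-/- and -1.59 ± 0.16 in WT mice), Lin54, a DNA-binding subunit of MuvB (-1.69 ± 0.22 in WT), E2f7, an atypical E2F (-1.29 ± 0.21 in WT), and in Batf3-/- mice Myc (-2.24 ± 0.27) and E2f3 (-1.23 ± 0.17). Only the largest called differences of each genotype are named here, so a gene given for a single genotype may be lower in the other too.

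Several measures moved with these differences. The spread of all values on an array (SD over genes, log2) was 2.07 to 2.16 in Batf3-/- migratory and 1.96 to 2.03 in WT migratory arrays, against 2.16 to 2.23 in Batf3-/- resident and 2.21 to 2.22 in WT resident arrays. With that spread as a covariate 40 genes were called lower and 1 higher in Batf3-/- mice, and 13 lower and 0 higher in WT mice, the 13 being Ccne1, Ccne2, E2f8, Cdc6, Mcm6, Pcna, Tyms, Aurkb, Birc5, Ccna2, Ccnb2, Top2a and Ube2c. At that setting 17.2% of all genes were called lower in Batf3-/- and 4.43% in WT mice, and 16.2% and 6.15% were called higher. The SE over the 47 genes ran from 0.32 to 0.78 in WT mice with the covariate, against 0.15 to 0.41 without it, and their median difference was -1.01, against -1.63. Of the 45 WT calls, 43 kept their sign. Among those that lost the call, 12 stayed at 1 log2 unit or more, such as Plk1 (-2.48), Rrm2 (-2.41), Nusap1 (-2.25) and Ccnd2 (1.86, adjusted p = 0.056). A further 18 were under 1 log2 unit with their sign kept, among them Mcm3 (-0.23), Rrm1 (-0.20) and Mcm7 (-0.19), and the signs of Ccnd3 and Cdk2 turned. In WT mice 5 of 5 B cell markers were called higher in migratory cells, with array means of 5.94 to 6.39 in migratory against 4.33 to 4.85 in resident cells, and 3 of 7 T cell markers, with 6.05 to 6.92 in migratory against 5.82 to 5.96 in resident cells. In Batf3-/- mice 1 of 5 B cell markers and 0 of 7 T cell markers were called higher, with array means for B cells of 4.95 to 5.91 in migratory against 4.55 to 4.95 in resident cells, and for T cells of 5.85 to 6.53 in migratory against 5.91 to 6.80 in resident cells. Other markers were called lower in migratory than in resident cells of both genotypes. They were 3 of 4 markers of type 2 conventional dendritic cells (cDC2) and 1 of 4 of plasmacytoid dendritic cells (Ccr9). Kit, the 1 progenitor marker tested, was lower by -2.73 in Batf3-/- and -2.66 in WT mice. Of 4 macrophage and monocyte markers Lyz2 was lower in both, while C1qa and C1qb were higher in Batf3-/- mice. The part of other cells in the results was not tested. Of the 48 genes, 14 in Batf3-/- migratory and 12 in WT migratory cells had a mean below the filter level, against 1 in each resident group. Without the first WT resident array, 44 genes were called lower and 1 higher in WT mice, as with it.

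The second question was whether the loss of Batf3 goes with other levels of these genes in resident DC1. In SDLN resident cells 1 of the 47 genes was called lower in Batf3-/- than in WT mice and 0 were called higher, against 0.997% and 0.847% of all genes tested. The median difference was -0.24 over the 47 genes and -0.01 over all genes, and 36 of 47 lay below 0. By phase it was 0.06 for G1/S control, -0.27 for replication, where 15 of 15 lay below 0, and -0.24 for mitosis, where 17 of 19 did. For the replication gene Tk1 a second, slightly dimmer probe set gave 0.75, opposite to the -0.08 of the one used. An unadjusted p under 0.05 was found for 6 of 47 genes, 0 of them of mitosis, and for 9.61% of all genes. All Batf3-/- arrays lay below all WT arrays for 4 genes and above them for 3, against 11.2% and 8.61% of all genes.

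Cdk6 was the called gene. It measured 6.17, 6.62 and 6.03 in Batf3-/- resident cells, against 7.04, 7.06 and 7.29 in WT resident cells, with no overlap, a difference of -0.85 ± 0.18 (adjusted p = 0.033, 95% interval -1.25 to -0.46). It was no longer called without the filter on dim genes or when any of the 6 resident arrays but the second Batf3-/- one was left out. Ccnd1 lay higher on every Batf3-/- array than on any WT array (10.51, 10.40 and 10.05 in Batf3-/- against 9.54, 9.56 and 9.69 in WT), but the difference of 0.72 ± 0.27 (95% interval 0.14 to 1.31) was not called (adjusted p = 0.33). It was called with array weights, with the array spread as a covariate and with only these 6 arrays in the fit.

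The proliferation markers did not pass the test in resident cells. Mki67, with 9.09, 9.62 and 8.39 in Batf3-/- against 9.09, 9.44 and 9.30 in WT resident cells, differed by -0.24 (95% interval -1.04 to 0.56), and Top2a, with 6.98, 7.52 and 6.72 in Batf3-/- against 7.35, 7.39 and 7.36 in WT, by -0.30 ± 0.19. Pcna, with 11.22, 11.36 and 11.20 in Batf3-/- against 11.72, 11.47 and 11.41 in WT, differed by -0.28 ± 0.13 (adjusted p = 0.55), and Cdk1, with 7.29, 7.90 and 7.10 in Batf3-/- against 7.89, 7.93 and 8.03 in WT, by -0.52 ± 0.27 (adjusted p = 0.61). Of the replication genes, Tyms (-0.51 ± 0.21) and Gins2 (-0.39 ± 0.16) had the smallest p, and the cyclin A2 gene Ccna2 (-0.36 ± 0.17) had it in mitosis, none of them called. Per array, the median over the 48 genes was 6.96, 7.44 and 6.91 in Batf3-/- and 7.29, 7.26 and 7.35 in WT resident cells, so the second Batf3-/- array lay above the 3 WT arrays and the other 2 below them. For 42 of the 47 genes the 95% interval lay within 1 log2 unit of 0 on both sides. The markers of migratory cells averaged higher in Batf3-/- resident arrays (7.32 to 8.43) than in WT resident arrays (6.62 to 7.19), with Ccr7 (1.62) and Ccl22 (1.74) called among 7, and 2 of 4 cDC2 markers were called higher, with array means of 5.71 to 6.09 in Batf3-/- against 5.01 to 6.24 in WT resident cells. Their part in the result was not tested.

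In migratory cells 0 of the 47 genes were called between Batf3-/- and WT mice, against 7.13% of all genes called higher and 2.28% called lower, and 6 of 47 had an unadjusted p under 0.05, against 29.96% of all genes. The median over the genes was -0.05 and that over all genes 0.10. The lowest adjusted p was that of Ccnd3. Ccnd3 measured 6.80, 7.14 and 6.40 in Batf3-/- against 5.48 and 6.26 in WT migratory cells (0.91 ± 0.28, adjusted p = 0.056), and Ccnd1 8.77, 8.89 and 7.65 in Batf3-/- against 7.54 and 7.51 in WT (0.91 ± 0.30, adjusted p = 0.074). All Batf3-/- arrays lay above both WT arrays for these 2 genes, and for 4 of the 47 in all, against 24.2% of all genes, while for 8 they lay below, against 12.4%. Pcna, with 9.71, 9.70 and 9.84 in Batf3-/- against 10.41 and 10.00 in WT, lay lower (-0.46 ± 0.15, adjusted p = 0.066), as did Ccne2 (-0.60 ± 0.20, adjusted p = 0.074). Every Ccne2 value in migratory cells lay below the filter level, where no background is measured. Leaving out the third Batf3-/- migratory array gave 5 genes higher (Ccnd1, Ccnd3, Mcm3, Mcm4 and Rrm1) and 2 lower (Ccne2 and Pcna), and leaving out the second WT migratory array gave Ccnd3 higher and Nusap1 and Pcna lower. With the array spread as a covariate 0 were called and the sign of Ccnd1 and Ccnd3 turned (-0.14 for Ccnd1 and -0.13 for Ccnd3). The titles of same-numbered SDLN arrays hold a common code whose meaning is not given. With that number as a block Ccnd1 (1.07, adjusted p = 0.019), Ccnd3 (1.04, adjusted p = 0.0066) and Rrm1 were called higher. Ccne2 was called lower there (-0.68, adjusted p = 0.031). The shares of all genes called with single arrays left out or with the block are not given here. Calls gained at those settings therefore do not show a change particular to cell cycle genes. Within the 2 codes that hold both groups, Ccnd1 differed by 1.23 and 1.37 and Ccnd3 by 1.32 and 0.88. Mki67 (0.14, 95% interval -0.75 to 1.04), Top2a (0.23 ± 0.21) and Cdk1 (-0.05 ± 0.30) were not called. Of 4 macrophage and monocyte markers, C1qa (0.92) and C1qb (0.61) were called higher in Batf3-/- migratory cells and 0 lower. Ms4a1 (-1.30) was called lower among 5 B cell markers, and 0 of 7 T cell markers were called. The part of other cells in this result was not tested.

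Of the wider lists, 2 genes were called higher in Batf3-/- than in WT migratory cells, the DNA ligase gene Lig1 (1.03 ± 0.19) and Cdkn2b (0.69 ± 0.18), and 2 lower, E2f3 (-0.85 ± 0.19) and the replication factor gene Mcm10 (-0.64 ± 0.18). Of all genes, 7.13% were called higher and 2.28% lower there. In resident cells 0 genes of the wider lists were called by limma, against 0.847% of all genes higher and 0.997% lower. An unadjusted p under 0.05 held for 3 of 22 G1, 4 of 31 replication and 5 of 50 mitosis genes. It held for 9.61% of all genes.

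The difference between migratory and resident cells was compared between genotypes by the interaction term. No gene of the 47 was called and 0 had an unadjusted p under 0.05, against 19.2% of all genes, while 0.721% of all genes were called higher and 0.520% lower. The largest terms were 0.73 ± 0.40 for Mcm3, 0.64 ± 0.39 for Rrm1, 0.63 ± 0.36 for Mcm2 and 0.62 ± 0.34 for Mcm4, where a positive term means less of a drop in Batf3-/- than in WT mice. Mcm3 and Mcm4 were called higher in this term only when the third Batf3-/- migratory array was left out. The share of all genes called in that fit is not given here, so these calls do not show a change particular to cell cycle genes. For 26 of the 47 genes the 95% interval of the term lay within 1 log2 unit of 0, and its highest bound was 1.59, for Mcm3.

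**Figure D4:**
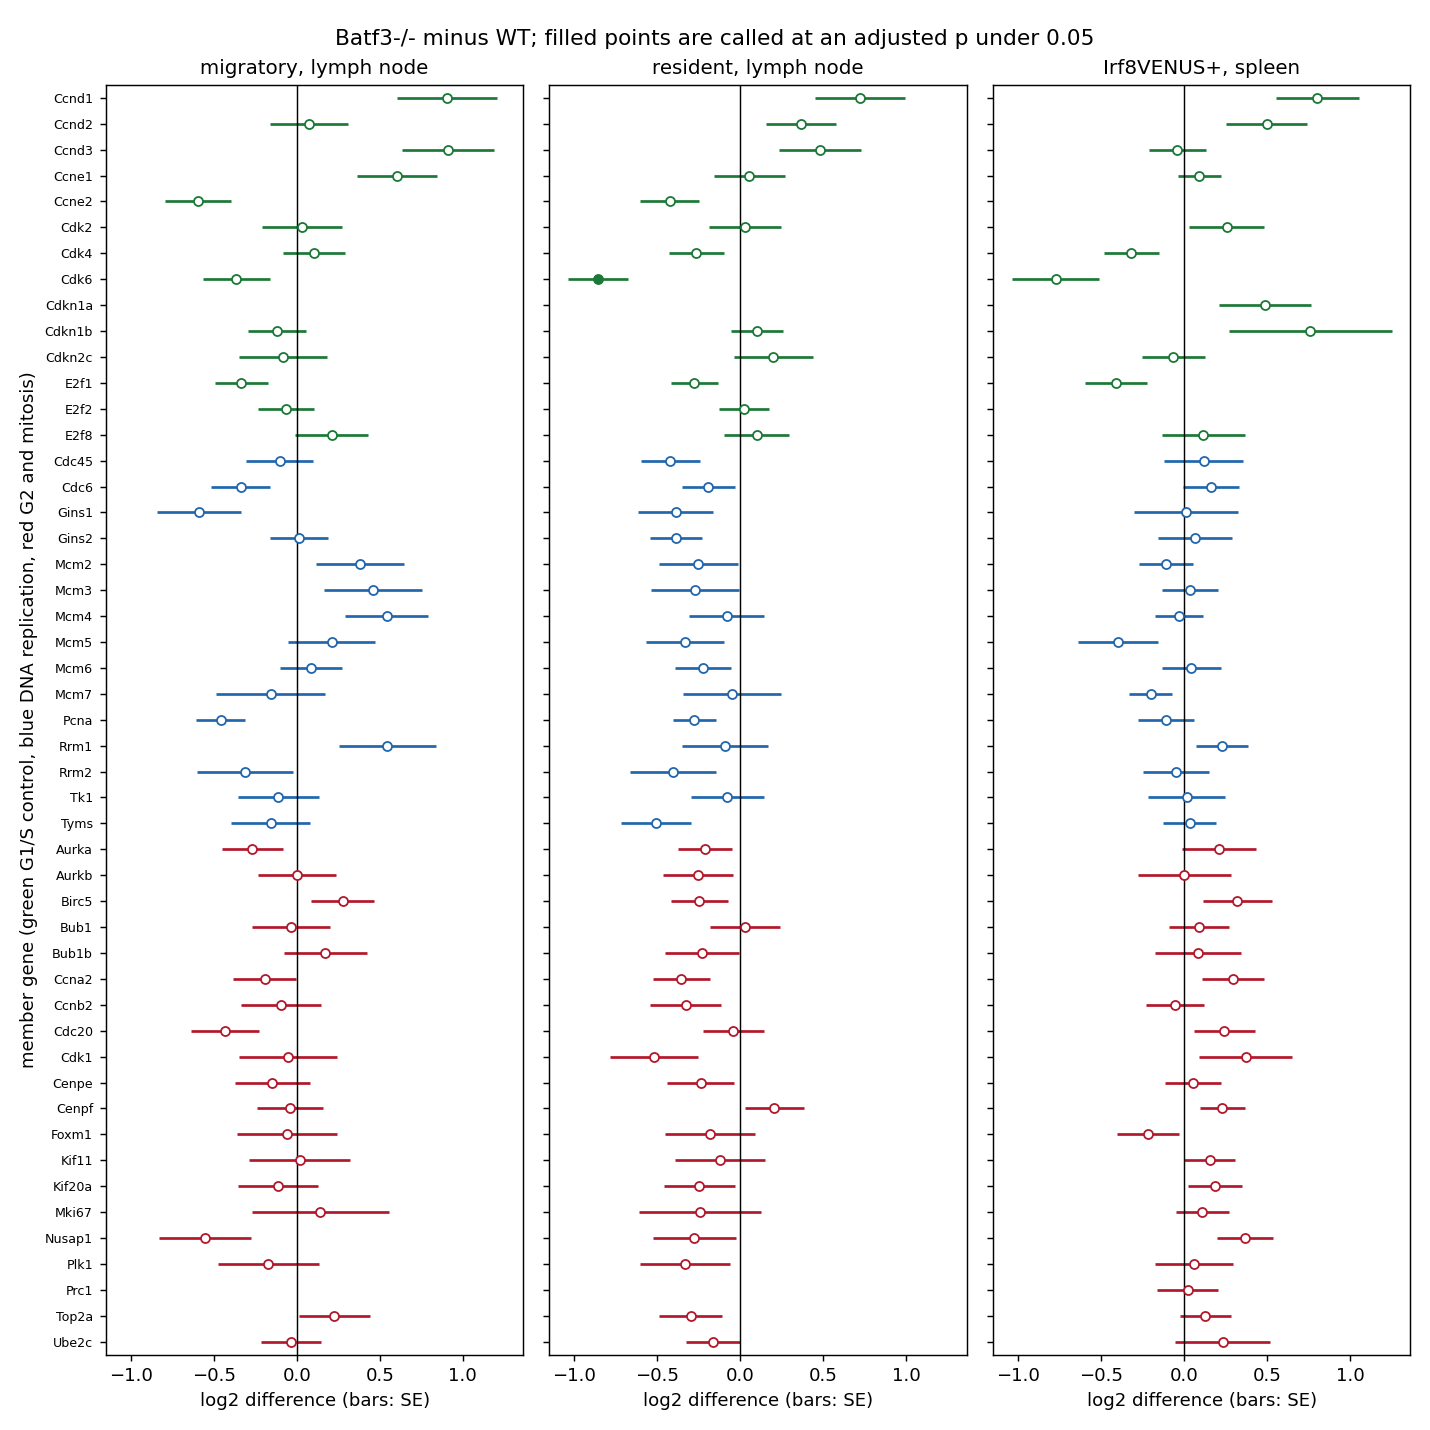
Log2 difference, Batf3-/- minus WT, of each tested cell cycle gene (rows, by phase and name) in SDLN migratory, SDLN resident and spleen Irf8VENUS+ cells (panels), with bars for the SE of the fit and filled points for called genes. Cdk6 in resident cells is the only filled point, and Ccnd1 lies to the right of 0 in all 3 panels.

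In spleen, whose arrays are of another type and were tested apart, Batf3-/- Irf8VENUS+ cells were compared with WT Irf8VENUS+ cells. No gene of the 47 was called, against 0.435% of all 12875 genes called higher and 0.303% lower, and 2 had an unadjusted p under 0.05, both of G1, against 10.4% of all genes. Arrays of the groups did not overlap for 4 genes that were higher and 3 that were lower, against 6.15% and 6.56% of all genes. Ccnd1 measured 9.32, 9.32 and 8.998 in Batf3-/- Irf8VENUS+ cells, against 8.24, 8.05 and 8.95 in WT Irf8VENUS+ cells, with no overlap (0.80 ± 0.25, adjusted p = 0.28, 95% interval 0.23 to 1.38). The gap was 1.18 between the arrays gated on CD24 and XCR1 and 0.05 between the 2 gated on CD24 alone. Cdk6, with 5.40, 6.37 and 6.93 in Batf3-/- against 6.93, 6.58 and 7.50 in WT cells, lay lower with overlap (-0.77 ± 0.26, adjusted p = 0.33), by -0.87 in the first gate and -0.58 in the second. These are the genes that stood out in SDLN resident cells, and in spleen neither passed the test.

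The markers of division did not pass the test between the 2 Irf8VENUS+ spleen groups. Mki67 had 9.05, 9.25 and 8.88 in Batf3-/- against 9.14, 8.88 and 8.83 in WT cells, a difference of 0.11 with a 95% interval of -0.25 to 0.48. Top2a had 8.69, 8.96 and 8.28 in Batf3-/- against 8.79, 8.69 and 8.06 in WT cells (0.13 ± 0.15), and Cdk1 8.21, 8.06 and 7.11 in Batf3-/- against 7.03, 7.97 and 7.26 in WT cells (0.37 ± 0.28). Pcna had 10.02, 10.24 and 10.34 in Batf3-/- against 9.86, 10.38 and 10.69 in WT cells (-0.11 ± 0.17). The medians were 0.11 for G1/S control, 0.02 for replication and 0.14 for mitosis, and for 41 of the 47 genes the 95% interval lay within 1 log2 unit of 0. Smallest by p among replication and mitosis genes were Mcm5 (-0.39 ± 0.24), Mcm7 (-0.20 ± 0.13), Nusap1 (0.37 ± 0.17) and Cenpf (0.23 ± 0.13).

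Both Irf8VENUS+ spleen groups were also set against WT Irf8VENUS- cells, which they share as a control, so their values are given side by side without further comparison. In WT Irf8VENUS+ against WT Irf8VENUS- cells 0 of 47 genes were called, against 0.0155% of all genes higher and 0.00777% lower. An unadjusted p under 0.05 was found for 6 of 20 mitosis genes, 0 of 12 G1/S and 0 of 15 replication genes, against 7.91% of all genes, and the median of the mitosis genes was 0.42, against 0.02 for all genes. In Batf3-/- Irf8VENUS+ against WT Irf8VENUS- cells 0 were called, against 0.280% in each direction, with 11 of 20 mitosis genes at an unadjusted p under 0.05, against 9.25% of all genes, and a median of 0.62, against 0.0009 for all genes. The WT Irf8VENUS+ arrays lay above both Irf8VENUS- arrays for 10 of the 47 genes and below them for 2, against 14.6% and 10.3% of all genes, and the Batf3-/- Irf8VENUS+ arrays for 12 and 1, against 14.4% and 12.5%. The sort gate was a term of this fit, so these differences are not plain differences of means.

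Ccnb2 measured 8.31, 8.40 and 8.23 in Batf3-/- Irf8VENUS+ and 8.68, 8.16 and 8.26 in WT Irf8VENUS+ cells, against 7.72 and 7.64 in WT Irf8VENUS- cells, so all 6 reporter-positive arrays lay above both reporter-negative ones (0.68 ± 0.21, adjusted p = 0.29, for Batf3-/- and 0.73 ± 0.21, adjusted p = 0.48, for WT). Mki67, whose reporter-positive arrays are given above, had 8.59 and 8.30 in WT Irf8VENUS- cells, below all 6 (0.69 ± 0.19, adjusted p = 0.22, for Batf3-/- and 0.58 ± 0.19, adjusted p = 0.52, for WT). Foxm1 had 6.92, 6.72 and 6.21 in Batf3-/- Irf8VENUS+ and 7.04, 7.36 and 6.08 in WT Irf8VENUS+ cells, against 6.21 and 5.86 in WT Irf8VENUS- cells (0.87 ± 0.22, adjusted p = 0.19, for Batf3-/- and 1.08 ± 0.22, adjusted p = 0.34, for WT). Of these, the Foxm1 arrays overlap between groups. Top2a differed by 0.56 for Batf3-/- and 0.44 for WT, and Cdk1 by 0.87 for Batf3-/- and 0.50 for WT. Pcna went the other way, by -0.33 for Batf3-/- and -0.22 for WT. Ccnd1 differed by 0.49 for Batf3-/- and -0.32 for WT. Each reading rests on 2 reporter-negative arrays.

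**Figure D5:**
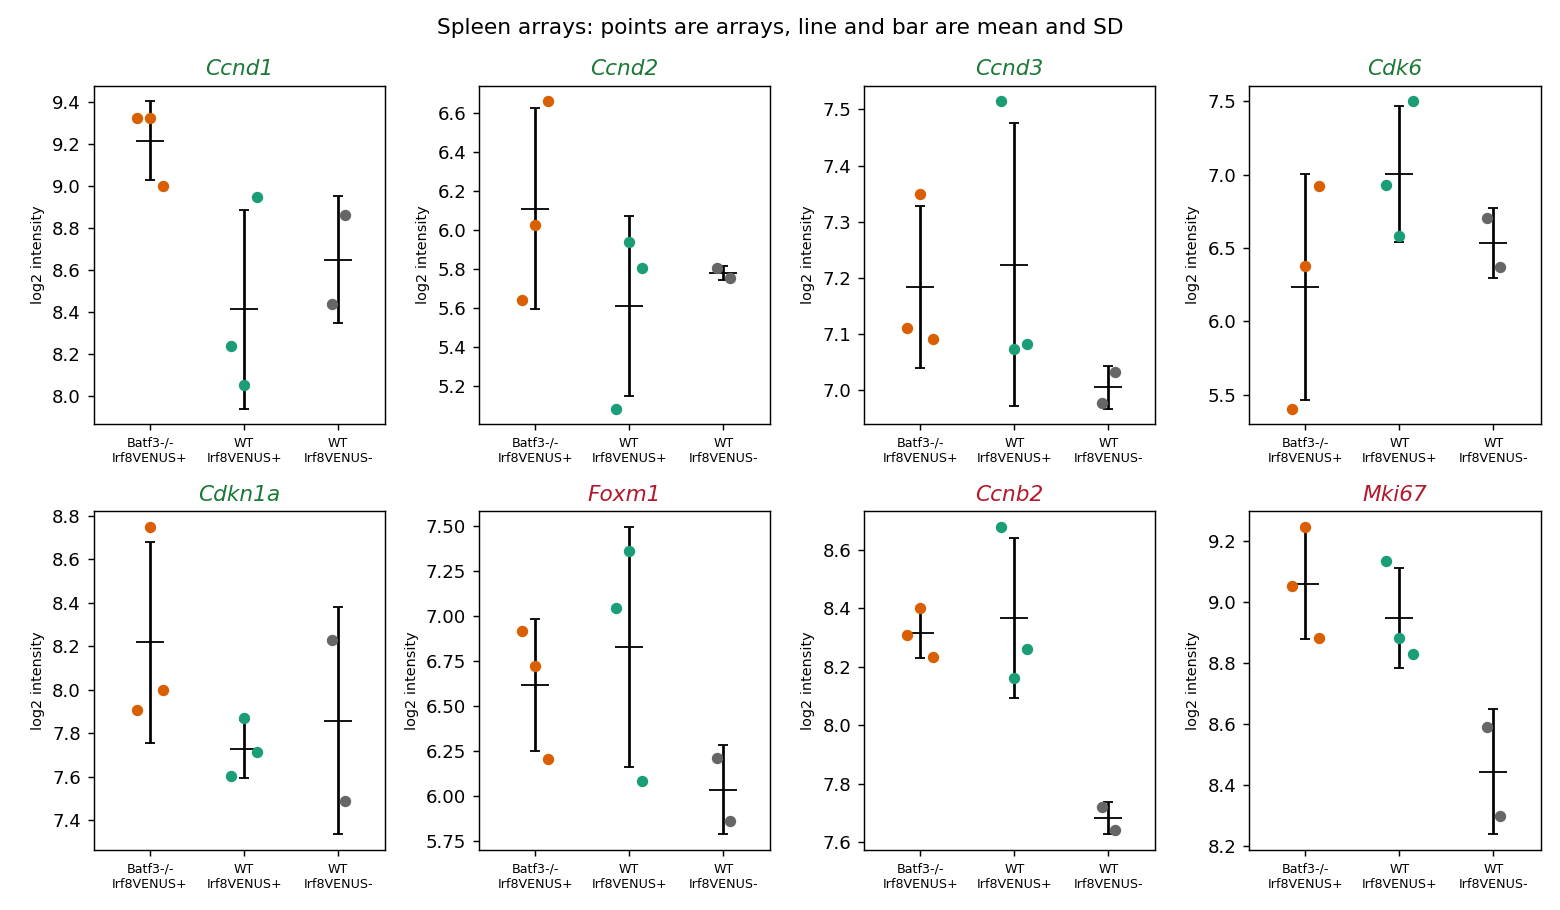
Log2 intensity of 8 genes (panels, green titles for G1/S control, red for mitosis) in the 3 spleen groups, with points for arrays and a line and bar for mean and SD (n = 3, 3 and 2; axes do not start at 0). Ccnd1 lies higher in Batf3-/- Irf8VENUS+ than in WT Irf8VENUS+ cells, and Ccnb2 and Mki67 are lowest in the 2 WT Irf8VENUS- arrays.

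Cdkn1a, which encodes p21 and could be read in spleen only, measured 7.91, 8.75 and 8.00 in Batf3-/- Irf8VENUS+ and 7.60, 7.87 and 7.72 in WT Irf8VENUS+ cells, against 8.23 and 7.49 in WT Irf8VENUS- cells. The difference between the Irf8VENUS+ groups was 0.49 ± 0.28 (adjusted p = 0.61), with no overlap of their arrays. Cdkn1b had its widest spread in WT Irf8VENUS+ cells, with 9.81, 9.57 and 9.03 in Batf3-/- Irf8VENUS+, 7.47, 9.49 and 9.17 in WT Irf8VENUS+ and 9.57 and 9.43 in WT Irf8VENUS- cells, the first WT Irf8VENUS+ array being low. Ccnd2, the cyclin that was higher in migratory cells, had 5.64, 6.03 and 6.66 in Batf3-/- Irf8VENUS+ and 5.08, 5.94 and 5.81 in WT Irf8VENUS+ cells, against 5.81 and 5.75 in WT Irf8VENUS- cells, and was not called.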

How the data were processed

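RNA of sorted DC1 was hybridised to Affymetrix arrays, 1 sample per array. The authors deposited log2 values for the lymph node arrays and linear intensity values for the spleen arrays, both made with RMA per the submitters' processing notes. Its version and the probe mapping are not given in the sources used here. Values are relative within a table, and no measure of background is given. Log2 was taken of the spleen values.

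Gene names came from the platform annotation, updated through RefSeq. Those that named more than 1 gene were dropped, and the brightest probe set per gene was kept. limma 3.58.1 in R 4.3.3 was fitted (lmFit, contrasts.fit, eBayes with trend) on all 11 SDLN or all 8 spleen arrays, the latter with the sort gate as a term, and tested on simulated data. The alternatives were the filter, normalization, array weights, trend, probe set rule, fits on fewer groups, a replicate block, the array spread, the sort gate and leaving out each array. The genes, lists and motifs were chosen with earlier results of these data known. The text names the listed genes. It gives every SDLN array for Mki67, Top2a, Pcna, Cdk1, Ccnd1 and most of the largest called genes per phase. In spleen it gives their Irf8VENUS+ arrays for Mki67, Top2a, Pcna, Cdk1 and Ccnd1. Of these, only Mki67 has its Irf8VENUS- arrays printed. Several genes named for the smallest p are given as differences alone. Other values, and the printed promoters, were chosen after values were seen.

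Same-numbered SDLN arrays have a code in common in their titles, whose meaning the labels do not give. In Batf3-/- mice, deviations from group means of same-numbered resident and migratory arrays correlated at 0.416, 0.210 and 0.479 over genes. For unlike numbers the values were 0.184 and 0.218 between replicates 1 and 2, and -0.451 to -0.279 with replicate 3. The 0.210 of replicate 2 lay below 0.218, so these values do not separate it from replicate 1. The number was taken to pair resident and migratory arrays of Batf3-/- mice. The reported SE and p-values have no term for this pairing. It entered only as a block in an alternative fit, which called 42 genes lower and 1 higher in Batf3-/- migratory cells. In the other comparisons the numbers were not taken as pairs. The number of arrays limits the precision.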

Additional observations from a re-analysis of the deposited data

How the results depend on the processing

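In Batf3-/- mice the migratory against resident counts lay within 1.5 times of those reported under every alternative run. In WT mice they did so under all but the array spread as a covariate, which gave 0 genes higher and 13 lower, so 32 of the 45 calls were lost; leaving out single arrays gave 42 to 44 lower. For resident Batf3-/- against WT cells, 1 gene (Ccnd1) was called higher with array weights, with only the groups compared and with the array spread; 0 were called lower without the filter, 3 (Ccne2, Cdk6 and Tyms) with array weights, and 0 to 1 when single arrays were left out. For migratory Batf3-/- against WT cells, array weights gave 2 higher (Ccnd1 and Ccnd3) and 2 lower (Ccne2 and Pcna), a repeated quantile normalization 1 lower (Pcna), and leaving out single arrays 0 to 5 higher and 0 to 2 lower. With the replicate number as a block, 3 were called higher (Ccnd1, Ccnd3 and Rrm1) and 1 lower (Ccne2). The block changed no other count of calls, and for the paired Batf3-/- migratory and resident arrays it gave 42 lower and 1 higher. The interaction gave 0 to 2 higher when single arrays were left out, and fitting only the groups compared has no value for it. In spleen 0 genes were called under every alternative run. For Batf3-/- against WT cells and for the interaction, the shares of all genes called under the alternatives are not given here. Calls gained there therefore do not show a change particular to cell cycle genes.

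Of the differences called in the 47 genes, 2 changed sign under an alternative, those of Ccnd3 (0.34) and Cdk2 (0.23) in WT migratory against resident cells with the array spread as a covariate. The signs below turned for differences that were not called. In migratory Batf3-/- against WT cells the array spread gave -1.54 for Mki67, -0.34 for Top2a, -0.14 for Ccnd1, -0.13 for Ccnd3 and 0.085 for Ccne2. There Mki67 was -0.044 after quantile normalization, Top2a was -0.56 as a mean of probe sets, and Cdk1 was 0.0051 with median centring, 0.077 with array weights and 0.051 with the replicate block. In the interaction the array spread gave -1.47 for Mki67, -0.10 for Top2a, 0.088 for Pcna, -0.97 for Ccnd1, -0.035 for Cdk6, -0.43 for Mcm4 and -0.64 for Mcm3. The interaction of Top2a was -0.32 as a mean of probe sets, and that of Ccnd1 was -0.0941 after quantile normalization. Pcna in Batf3-/- against WT Irf8VENUS+ spleen cells was 0.012 on arrays gated on CD24 and XCR1 alone. When single arrays were left out, Mki67 ranged from -0.54 to 0.077 in resident cells, from -0.26 to 0.56 in migratory cells and from -0.0123 to 0.80 in the interaction. Cdk1 ranged from -0.48 to 0.38 in migratory cells, Pcna from -0.39 to 0.024 and Ccnd1 from -0.042 to 0.58 in the interaction. In spleen Pcna ranged from -0.29 to 0.012 in Batf3-/- against WT Irf8VENUS+ cells and from -0.36 to 0.010 in WT Irf8VENUS+ against WT Irf8VENUS- cells. The cause was not tested.

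Groups of 2 or 3 arrays limit the precision, most in WT migratory and WT Irf8VENUS- cells. For genes near the filter level in migratory cells, the size of the difference is bounded by an unmeasured background.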
